A study of Saccharomyces cerevisiae with 9 samples.

Results

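Yeast that lack IME4 were compared with wild type after 4 h in sporulation medium, with 2 ime4 arrays against 3 wild-type (WT) arrays, 5 of the 9 arrays of the series. The arrays were chosen by their titles, which give genotype and medium. All cells were Saccharomyces cerevisiae of the SK1 strain, a background that sporulates readily. They were grown in the rich medium YPD and moved to sporulation medium (SPO), 1% potassium acetate, and differed in genotype, wild type or ime4-/-. The remaining 4 arrays, 2 of each genotype in YPD, served to ask whether a difference was also present in growing cells. Total RNA was labelled and hybridised to an Affymetrix array, and the deposited intensities were taken to log2. Of 9676 probe sets, 5359 were assigned to yeast genes and tested. A gene is said to rise or fall in ime4, or to be higher or lower, where its adjusted p in a limma fit was under 0.05, and counts are counts of probe sets. The mating-type lists hold 46 probe sets and are kept apart from the other 5313, because the genotypes also differed in the a1 and alpha1 signal. The labels give no mating type or ploidy and do not say how much of the gene was deleted. In such bulk samples, fewer cells of a type and less RNA per cell cannot be told apart.

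Ime4 is the catalytic subunit of the enzyme that places N6-methyladenosine (m6A) on messenger RNA in yeast, with Mum2 and Slz1 as partners, and it acts during starvation and early meiosis. A diploid cell with both mating types enters meiosis when nitrogen and glucose are absent. The transcription factor Ime1 then switches on early meiotic genes, the kinase Ime2 drives the programme forward, and Ndt80 later turns on the middle genes of the divisions and spore formation. On the same signals cells stop making ribosomes and turn to acetate, respiration and their own stores.

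IME4 itself checked the labels. Its log2 intensities in SPO were 7.14, 7.13 and 7.10 in WT and 2.54 and 2.14 in ime4. All 3 WT arrays were far over the background level of 3.02 to 3.27 log2, and both ime4 arrays lay under it. The signal was at least 17.1-fold lower in ime4 (adjusted p = 2.90e-09). The position of its probes relative to the deletion, and the strand they read, are not in the sources used here. Next to IME4 on chromosome VII, the cytochrome c oxidase subunit gene COX13 was lower by a log2 difference of -0.30 (SE 0.0447, adjusted p = 0.000221), and HOS2, a histone deacetylase gene, did not pass (0.02 (SE 0.0552, adjusted p = 0.706)). Replicate arrays correlated across probe sets at r = 0.998 to 0.999, and their medians in SPO lay between 7.80 and 7.86 log2. The ime4 pair in SPO shared 272 identical values out of 5359, against 59 to 99 in other replicate pairs, and its median absolute log2 difference of 0.0664 was like theirs (0.0532 to 0.0679).

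The mating-type transcripts separated the genotypes on every array. The a1 gene, read by the HMRA1 probe set, had log2 intensities of 8.80, 8.77 and 8.81 in WT and 2.72 and 3.28 in ime4. Only 1 of the 2 ime4 arrays was above background, so the size of its 55.4-fold lower signal is uncertain. HMLALPHA1, whose probes are shared with the alpha1 gene at the MAT locus, read 4.10, 3.96 and 3.86 in WT and 7.75 and 7.68 in ime4. HMRA2 was high on all arrays, 11.03, 11.01 and 10.88 in WT and 12.43 and 12.37 in ime4, and higher by 1.43 (SE 0.058, adjusted p = 5.61e-08). The name of its probe set also marks probes shared with other sequences, so which transcript rose is not known.

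All 7 a-specific genes were lower in ime4 in SPO (median log2 difference -2.08) and all 5 alpha-specific genes were higher (median 3.46), beside 39.4% of all tested sets lower and 34.1% higher. MFA2, which encodes the a-factor pheromone, read 10.65, 10.71 and 10.67 in WT and 5.74 and 5.73 in ime4. STE2, the alpha-factor receptor gene, read 8.42, 8.46 and 8.46 in WT and 4.87 and 5.10 in ime4. STE3, the a-factor receptor gene, read 4.80, 4.50 and 4.43 in WT and 7.99 and 8.09 in ime4. In all 3 the groups lay far apart. ASG7 was the a-specific gene nearest to its WT level, at -0.42 (SE 0.11, adjusted p = 0.0065), a call lost without ime4 replicate 2 (adjusted p = 0.0763). MF(ALPHA)2, an alpha-factor gene, had the smallest rise of the alpha-specific list, at 0.60 (SE 0.0847, adjusted p = 0.000148).

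Haploid-specific genes, which a cell with both mating types represses, were higher in ime4 in 13 of 13 cases, 8 of them at least 2-fold, with a median of 1.04. The list holds the pheromone G protein genes STE18, at 1.75 (SE 0.0557, adjusted p = 1.72e-08), and GPA1, at 1.33 (SE 0.0475, adjusted p = 2.88e-08). Genes that the pheromone response induces did not share this direction, with 4 higher and 7 lower of 18 (median -0.09). Over all tested sets, 34.1% were higher, 5.71% at least 2-fold higher and 39.4% lower. STE12, the transcription factor of that response, was higher by 1.02, and FIG1, a gene of mating cell fusion, was lower by a log2 difference of -0.78 (adjusted p = 0.00285). Summed intensities over the marker lists were 3145 to 3269 in WT and 289.0 to 290.1 in ime4 for 8 markers of a cells, and 291 to 312 in WT and 2125 to 2212 in ime4 for 6 markers of alpha cells. For 13 markers of cells with 1 mating type they were 1172 to 1193 in WT and 2527 to 2559 in ime4, and 8 markers of cells in mid-sporulation summed to 150.1 to 163 and 159.5 to 162. Of these last, SPS2 was at background on both ime4 arrays. Every ime4 array thus carried the alpha-specific pattern and every WT array the a-specific pattern. The markers of cells with 1 mating type were lower in WT than in ime4, and why was not tested. Genotype and mating-type pattern cannot be told apart in any result that follows.

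Outside the mating-type lists the 2 genotypes differed widely in SPO, mostly by small amounts. Of 5313 sets, 1803 (33.9%) were higher and 2094 (39.4%) lower in ime4. At least 2-fold, the balance was the other way, with 291 higher (5.48%) and 85 lower (1.6%). The arrays of the groups did not overlap in 81.2% of sets. The median difference was -0.04 log2 and the median absolute difference 0.32. Centring each array on its median moved the split over all 5359 sets from 1827 higher and 2109 lower to 1967 and 1912, so which direction held more sets depended on the scaling.

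The regulators that open the meiotic programme were lower in ime4. IME1, which encodes the master activator of meiotic entry, read 8.62, 8.55 and 8.71 in WT and 7.11 and 7.10 in ime4. IME2, the kinase gene it turns on, read 8.57, 8.66 and 8.59 in WT and 7.38 and 7.52 in ime4. RIM4, whose product holds back translation of meiotic messages, read 6.93, 6.99 and 7.0 in WT and 5.84 and 5.84 in ime4. In each the lowest WT array stood more than 1 log2 above the highest ime4 array. The differences were -1.52 (SE 0.0524, adjusted p = 2.57e-08), -1.15 (SE 0.0549, adjusted p = 1.41e-07) and -1.13 (SE 0.1, adjusted p = 6.30e-06).

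Of 17 activators of meiotic entry, 10 fell and 1 rose (median -0.38), beside 39.4% of all tested sets lower and 34.1% higher. Beside IME1, IME2 and RIM4, the fallen members were RIM11, the kinase gene for Ime1 activation (-0.62), the stress factor genes MSN4 (-0.95) and MSN2 (-0.42), RSF1, a gene of respiratory growth (-0.44), and RIM101 (-0.38), RIM21 (-0.41) and RIM8 (-0.22) of the alkaline pH pathway. The member that rose was SOK2, which is known as a repressor of IME1 and stands on the list of repressors too. Its values were 7.57, 7.75 and 7.62 in WT and 8.85 and 8.71 in ime4. The kinase genes RIM15 (-0.05) and MCK1 (-0.13) and the pH pathway genes RIM9 (-0.33), RIM13 (-0.09) and RIM20 (0.00) did not pass. RIM8 lost its call with quantile normalization (adjusted p = 0.07) and without ime4 replicate 2 (0.167), while MCK1 passed without that array (0.0404), RIM9 with quantile normalization (0.0433) and an offset of 16 (0.0315), and RIM13 with quantile normalization (0.0324). NDT80, the switch for the middle genes, read 4.20, 3.82 and 3.82 in WT and 3.82 and 4.37 in ime4. It was close to background on all 5 arrays and the groups overlapped (log2 difference 0.15 (SE 0.208, adjusted p = 0.535)).

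**Figure D1:**
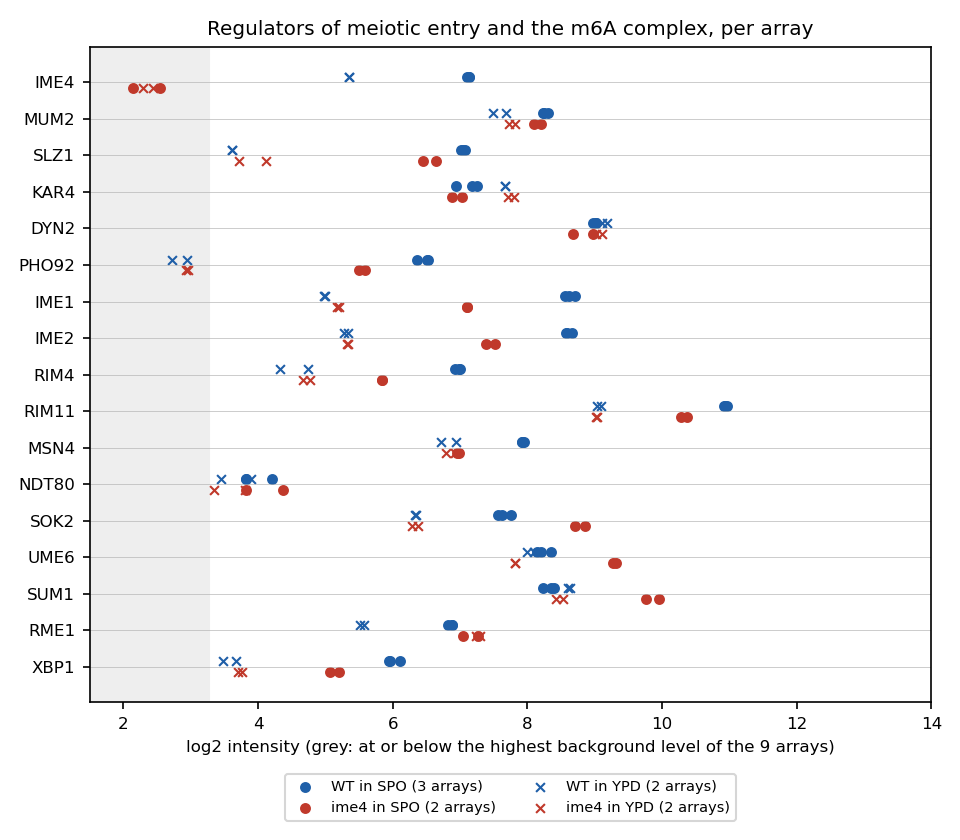
Log2 intensity of IME4, its partners and the regulators of meiotic entry on each of the 9 arrays. Blue is WT and red is ime4, circles are SPO and crosses are YPD, and the grey band is at or below the highest background level. In SPO, IME1, IME2, RIM4 and RIM11 lie lower in ime4 and SOK2, UME6 and SUM1 higher, while NDT80 lies near the band in all groups.

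Of 17 repressors of meiotic genes 5 rose and 9 fell (median -0.23), beside 34.1% of all tested sets higher and 39.4% lower. SUM1, which represses the middle genes in growing cells, read 8.23, 8.40 and 8.35 in WT and 9.76 and 9.95 in ime4, and UME6, which represses early genes until Ime1 binds it, read 8.36, 8.20 and 8.14 in WT and 9.27 and 9.31 in ime4. Neither overlapped between the groups, like 81.2% of sets outside the mating-type lists, and they rose 2.88-fold and 2.08-fold. RME1, a repressor of IME1 that haploid cells express, rose by only 0.30 (SE 0.0645, adjusted p = 0.00234), and HST1, the deacetylase gene that works with SUM1, by 0.33. XBP1, a stress-induced repressor gene, fell by 0.87 (SE 0.0737, adjusted p = 4.85e-06) and SSN8, the cyclin C gene, by 0.69 (SE 0.0495, adjusted p = 1.50e-06). The remaining falls were smaller, in RFM1 (-0.40), which encodes the link between Sum1 and Hst1, RPD3 (-0.26) and UME1 (-0.23) of the Rpd3 deacetylase complex, CYC8 (-0.26) and NRG1 (-0.25) of glucose repression, the remodeller gene ISW2 (-0.40) and SSN3 (-0.34), the kinase partner of SSN8. SIN3 (-0.03), TUP1 (-0.07) and NRG2 (0.10) did not pass, and NRG1 lost its call without ime4 replicate 2 (adjusted p = 0.119).

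Around Ime4 itself, none of the 6 genes of the methyltransferase complex and its reader was higher and 3 were lower, IME4 included. Over all tested sets, 34.1% were higher and 39.4% lower. PHO92, which encodes a reader of m6A, read 6.36, 6.52 and 6.51 in WT and 5.50 and 5.58 in ime4. SLZ1, a partner of Ime4, read 7.02, 7.08 and 7.04 in WT and 6.45 and 6.65 in ime4. These were 1.9-fold and 1.41-fold lower in ime4. The groups did not overlap in either, as in 81.2% of sets outside the mating-type lists. MUM2 (-0.12 (SE 0.0668, adjusted p = 0.147)), KAR4 (-0.17 (SE 0.0856, adjusted p = 0.104)) and DYN2 (-0.18 (SE 0.0773, adjusted p = 0.0606)) did not pass here. KAR4 did pass with quantile normalization (adjusted p = 0.047), with a replicate block (0.0128) and without WT replicate 3 (0.00738). DYN2 passed with the dimmest 25% of sets left out (0.0332), an offset of 16 (0.0368), an intensity trend (0.0243) and without ime4 replicate 1 (0.00212).

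Genes that act later in meiosis had no common direction. Of 32 genes of recombination and synapsis, 8 rose and 11 fell, with a median of 0.01 that became -0.05 with quantile normalization. These shares, 25% and 34.4%, were under those of all tested sets in both directions. DMC1, the meiotic recombinase gene, fell by 0.73 (SE 0.0856, adjusted p = 4.30e-05), MPS3, a gene of the nuclear envelope that anchors chromosome ends, by 1.35 (SE 0.125, adjusted p = 8.62e-06), and CSM4, which works in telomere-led chromosome movement, by 1.28 (SE 0.167, adjusted p = 8.92e-05). MND1, needed for strand invasion, read 4.20, 4.86 and 3.92 in WT and 6.36 and 6.15 in ime4 and rose 3.8-fold, from a WT level near background. Among 48 middle sporulation genes 16 rose and 9 fell (median 0.06) and none changed 2-fold. These were 33.3% and 18.8%, beside 34.1% of all tested sets higher and 39.4% lower. MPC54, of the spindle pole body plaque that starts the spore membrane, rose by 0.86 (SE 0.134, adjusted p = 0.000299), and OSW1, of the outer spore wall, fell by 0.92 (SE 0.106, adjusted p = 3.80e-05). Spore wall genes gave 7 higher and 8 lower of 19 (median -0.05). Their shares, 36.8% and 42.1%, were near those of all tested sets. CDA2, a chitin deacetylase gene of the spore wall, was the exception in size, with values of 4.80, 4.81 and 4.70 in WT and 7.16 and 7.11 in ime4 and a rise of 5.14-fold. SKT5, an activator gene of chitin synthase, rose by 0.69. At 4 h, 7 of the 8 mid-sporulation markers exceeded background on all WT arrays and 7 on both ime4 arrays, at the low summed levels already given.

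Ribosome assembly held the lists with the most genes at least 2-fold higher. Genes of the small subunit processome, the complex that builds the small ribosomal subunit, were higher in ime4 in 59 of 63 cases, 35 of them at least 2-fold, with a median of 1.03. Of 80 assembly factors of the large subunit, 77 were higher and 37 at least 2-fold (median 0.99). Among all 5359 sets, 34.1% were higher and 5.71% at least 2-fold higher. In the processome list no gene fell 2-fold, and the single lower gene was NOB1 (-0.14 (SE 0.0463, adjusted p = 0.0228)), an endonuclease of the last cleavage step. Its call was lost with either scaling alternative, with the replicate block and without WT replicate 1 or ime4 replicate 2 (adjusted p = 0.058 to 0.117). The single lower gene of the large subunit list was TIF6 (-0.33 (SE 0.048, adjusted p = 0.000203)), which keeps large subunits from joining small ones too early. NOB1 and TIF6 are named because they stood alone.

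The members with the largest rises included 4 helicase genes. SPB1, an RNA methyltransferase gene of large subunit assembly, read 6.08, 6.38 and 6.21 in WT and 8.71 and 8.77 in ime4. PRP43, a helicase gene of both ribosome assembly and splicing, read 8.19, 8.08 and 8.17 in WT and 10.68 and 10.58 in ime4. ROK1, a helicase gene of the small subunit, read 7.04, 7.29 and 7.23 in WT and 9.61 and 9.56 in ime4. All ime4 arrays were at least 2 log2 above all WT arrays in these 3 genes, with rises of 5.72-fold, 5.59-fold and 5.28-fold. SDA1, needed for export of the large subunit, rose 4.47-fold, MAK5, another helicase gene, 4.45-fold, ECM16, a helicase gene of the processome, 4.32-fold, and UTP14, the gene of its activator, 4.1-fold.

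Genes of RNA polymerase I, which transcribes ribosomal RNA, divided by role. Of its 7 measured RPA subunit genes 6 rose (median 1.11), and of 7 genes of its initiation factors 1 rose and 2 fell (median 0.01). RPA190, the largest subunit, read 7.78, 7.87 and 7.94 in WT and 9.65 and 9.33 in ime4. RPA43 rose 2.73-fold and RPA12 2.2-fold. For RNA polymerase III, which makes transfer RNA, 11 of 12 subunit genes rose (median 0.58), RPC53 by 1.22, and none of 8 initiation factor genes did (4 fell, median -0.19). These splits into subunits and factors were made after the values were seen. Among all tested sets, 34.1% rose and 39.4% fell. Box H/ACA ribonucleoprotein genes, which guide pseudouridylation of ribosomal RNA, rose in 6 of 6 cases (median 0.83), GAR1 with 10.86, 10.80 and 10.74 in WT and 12.21 and 12.23 in ime4. The exosome, which trims ribosomal RNA, had 9 higher and 1 lower of 13, at a median of 0.22.

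Of 75 probe sets of cytosolic large-subunit ribosomal proteins 73 were higher and none lower (median 0.83). Of 53 of the small subunit 51 were higher and none lower (median 0.82), beside 34.1% of all tested sets higher and 39.4% lower. RPL8B, the member with the largest rise, read 8.64, 8.63 and 8.68 in WT and 10.33 and 10.29 in ime4. RPL16B rose 2.9-fold and RPS9B 2.62-fold. The ime4 mean in SPO lay between the WT mean in SPO and the WT mean in YPD for 75 of 75 large-subunit and 52 of 53 small-subunit sets. For assembly factors this held in 64 of 80, and for the processome in 53 of 63, while 14 and 8 stood at or above the WT level in YPD. Whether the SPO and YPD arrays were normalized together is not given in the sources used here. Their scales were unlike, with a 99th percentile of 12.28 to 12.33 log2 in SPO and 12.63 to 12.65 in YPD. This limits such levels set across media. Many ribosomal protein genes have near-identical copies, whose probes may read both. Mitochondrial ribosomal proteins went the other way, with 52 lower and 7 higher of 67 (median -0.35). MRPL7 fell by 0.91 (SE 0.0441, adjusted p = 1.57e-07).

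**Figure D2:**
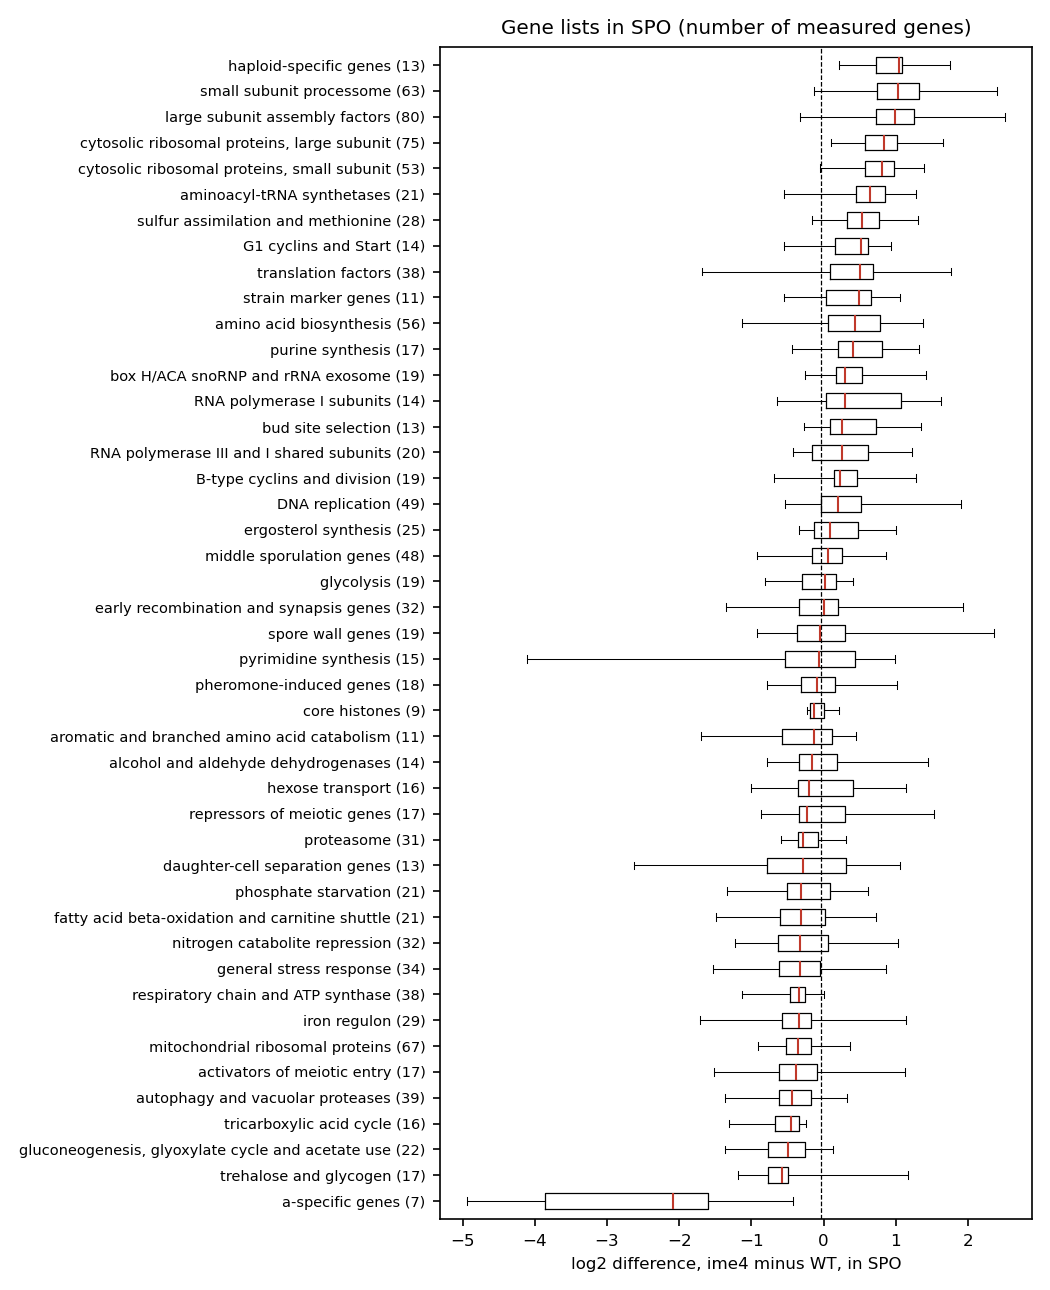
Log2 difference between ime4 and WT in SPO for the members of each gene list of at least 7 measured genes. Boxes span the quartiles, red lines are medians, whiskers reach the lowest and highest member, and the dashed line is the median of all tested sets, -0.04. The ribosome lists sit to the right with medians of 0.82 to 1.03, and trehalose and glycogen, acetate use and the tricarboxylic acid cycle to the left.

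Translation beyond the ribosome followed, with 27 of 38 translation factor genes higher and 4 lower (median 0.51). Aminoacyl-tRNA synthetase genes had 18 of 21 higher and 1 lower (median 0.64), beside 34.1% of all tested sets higher and 39.4% lower. TIF3, the eIF4B gene, read 8.86, 8.94 and 8.96 in WT and 10.62 and 10.76 in ime4, and THS1, the threonyl-tRNA synthetase gene, rose 2.43-fold. Of the 5 lower genes of these lists the 1 that fell at least 2-fold was HEF3, an alternative elongation factor 3 gene, which read 9.58, 9.72 and 9.69 in WT and 7.98 and 7.99 in ime4 and was 3.2-fold lower.

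Genes of life on acetate were lower in ime4, beside 39.4% of all tested sets lower and 34.1% higher. Of 22 genes of acetate use, the glyoxylate cycle and gluconeogenesis, 21 fell and 1 rose (median -0.49), as did 16 of 16 in the tricarboxylic acid cycle (median -0.46) and 34 of 38 in the respiratory chain and ATP synthase (median -0.33). Most of these falls were under 2-fold, and 4, 2 and 1 of them reached it, beside 1.6% of sets outside the mating-type lists. ATO3, a putative ammonium exporter gene, read 11.95, 11.93 and 11.98 in WT and 10.60 and 10.56 in ime4. ACS1, acetyl-CoA synthetase, read 12.11, 12.12 and 12.18 in WT and 10.98 and 10.98 in ime4, and CAT8, the activator gene of gluconeogenesis, read 9.56, 9.58 and 9.59 in WT and 8.53 and 8.45 in ime4. The groups did not overlap in any of them, as in 81.2% of sets outside the mating-type lists. These genes were 2.59-fold, 2.23-fold and 2.13-fold lower. CIT3, a mitochondrial citrate synthase gene, fell 2.48-fold, KGD1 of 2-oxoglutarate dehydrogenase 2.2-fold and NDI1, the internal NADH dehydrogenase, 2.18-fold. In beta-oxidation and the carnitine shuttle 3 of 21 rose and 14 fell, and YAT1, a carnitine acetyltransferase gene, fell 2.8-fold. Alcohol and aldehyde dehydrogenases were mixed, with 4 higher and 6 lower of 14. ALD5, a mitochondrial aldehyde dehydrogenase gene, rose 2.74-fold, and ADH2, which oxidises ethanol, fell 1.61-fold.

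Stores, stress and self-digestion were lower as well, again beside 39.4% of all tested sets lower and 34.1% higher. In the trehalose and glycogen list 16 of 17 fell (median -0.57), GLG2, a primer of glycogen, 2.27-fold. The 1 that rose was PGM1, a minor phosphoglucomutase gene (1.17). Autophagy and vacuolar proteases had 30 lower and 5 higher of 39 (median -0.44), with PRB1, vacuolar protease B, at 10.69, 10.55 and 10.72 in WT and 9.27 and 9.32 in ime4. In the general stress list 23 fell and 6 rose of 34 (median -0.33), and SIP18 and GRE1, both desiccation-induced genes, fell 2.88-fold and 2.81-fold. The proteasome had 21 lower and 2 higher of 31, all under 2-fold. Of 32 genes under nitrogen catabolite repression 20 fell and 5 rose. GDH3, a glutamate dehydrogenase gene, fell 2.33-fold. Of 29 iron regulon genes 21 fell and 2 rose (median -0.34). The siderophore transporter genes ARN2 and SIT1 fell 3.26-fold and 2.36-fold, while FRE4, a ferric reductase gene of siderophore iron, rose 2.2-fold. In the phosphate list 12 fell and 4 rose of 21, with PHO3, an acid phosphatase gene, 2.53-fold lower.

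In the lists of amino acid and purine synthesis more genes rose than fell, beside 34.1% of all tested sets higher and 39.4% lower. In the sulfur and methionine list 23 of 28 rose and none fell (median 0.54), and CYS3, cystathionine gamma-lyase, rose 2.48-fold. Of 56 amino acid biosynthesis genes 39 rose and 12 fell. Grouped by pathway after the values were seen, all 8 lysine genes fell (median -0.77), and of the other 48, 39 rose and 4 fell (median 0.53). LYS9, of the last steps to lysine, read 11.83, 11.75 and 11.80 in WT and 10.67 and 10.66 in ime4. THR1, homoserine kinase, read 7.39, 7.44 and 7.54 in WT and 8.81 and 8.85 in ime4. LYS20, homocitrate synthase, fell 1.85-fold and LYS14, the activator gene of the pathway, 2.02-fold, while HOM3, aspartate kinase, rose 2.36-fold. Purine synthesis had 13 higher and 4 lower of 17, GUA1, GMP synthase, 2.51-fold higher. In the breakdown of aromatic amino acids ARO9 and ARO10 fell 3.23-fold and 2.26-fold, in a list with 3 higher and 4 lower of 11.

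Pyrimidine synthesis as a list was balanced, with 7 higher and 6 lower of 15, beside 34.1% of all tested sets higher and 39.4% lower. It held URA1, which had a larger fall than any other gene outside the mating-type lists apart from IME4. The fall of IME4 is known only as a bound. URA1, dihydroorotate dehydrogenase, read 11.15, 11.20 and 11.14 in WT and 7.03 and 7.08 in ime4 and was 17.2-fold lower in ime4 (adjusted p = 4.15e-11). No array of one group came within 4 log2 of the other. URA7, CTP synthase, was 1.99-fold higher. In YPD, URA1 read 11.00 and 11.08 in WT and 9.38 and 9.42 in ime4, a difference of -1.64 (adjusted p = 3.92e-08).

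Among genes of the cell cycle, 28 of 49 DNA replication genes rose and 8 fell (median 0.20), 10 of 14 genes of G1 cyclins and Start rose and 2 fell (median 0.52), and 12 of 19 genes of B-type cyclins and division rose and 3 fell (median 0.22), beside 34.1% of all tested sets higher and 39.4% lower. POL2, the catalytic subunit of DNA polymerase epsilon, read 6.65, 6.50 and 6.54 in WT and 8.45 and 8.50 in ime4. POL30, the sliding clamp PCNA, read 7.35, 7.32 and 7.19 in WT and 8.78 and 8.77 in ime4. Both were separated by more than 1 log2, with rises of 3.75-fold and 2.81-fold. SWI5, an activator gene of late mitosis, rose 2.43-fold, HSL1, a kinase gene of the bud neck checkpoint, 2.26-fold, and CLN2, a G1 cyclin, 1.91-fold from a low level. RSR1, the GTPase gene of bud site choice, rose 2.55-fold.

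Daughter-cell separation genes, which act where a new cell parts from its mother, went both ways, with 6 higher and 7 lower of 13. Across all tested sets, 34.1% were higher and 39.4% lower. The largest falls were of genes of the septum and daughter wall. DSE2, a glucanase-like wall gene, read 7.77, 7.78 and 7.62 in WT and 5.01 and 5.19 in ime4. DSE1, of the daughter cell wall, read 7.03, 6.88 and 6.85 in WT and 5.16 and 5.20 in ime4, and CTS1, the chitinase that splits mother from daughter, read 8.49, 8.44 and 8.39 in WT and 6.70 and 6.71 in ime4. None of these overlapped, like 81.2% of sets outside the mating-type lists, and the falls were 6.15-fold, 3.34-fold and 3.33-fold. These 3 were also lower in YPD, where ime4 cells were growing (log2 differences -3.62, -3.26 and -2.44).

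The largest rises outside the mating-type lists beyond those above were SVS1 and SRL1, both cell wall protein genes, RFU1, an inhibitor gene of the deubiquitinase Doa4, SRO9, an RNA-binding protein gene, FLO10, a flocculin, and YDR261W-B, a Ty1 retrotransposon gene. SVS1 read 6.63, 6.86 and 6.77 in WT and 9.34 and 9.29 in ime4. RFU1 read 5.72, 5.51 and 5.54 in WT and 7.97 and 8.04 in ime4. In both, the highest WT array was more than 2 log2 under the lowest ime4 array. The rises were 5.91-fold, 5.33-fold, 4.75-fold for SRL1, 4.4-fold for SRO9, 4.32-fold for FLO10 and 4.96-fold for YDR261W-B, whose probes may read many Ty1 copies.

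Among the other falls, FDH1, formate dehydrogenase, read 12.06, 12.09 and 12.09 in WT and 9.64 and 9.63 in ime4. SIR2, the silencing deacetylase gene, read 8.03, 7.87 and 7.92 in WT and 6.02 and 5.96 in ime4. YGR109W-A, the Ty3 Gag gene, read 7.49, 7.74 and 7.71 in WT and 5.43 and 5.30 in ime4. The groups were separated by more than 1 log2 in each, and the falls were 5.45-fold, 3.87-fold and 4.86-fold. YNL146C-A, of unknown role, fell 6.11-fold, FAT3, of fatty acid uptake, 3.75-fold, KTR5, a putative mannosyltransferase gene, 3.69-fold, YIG1, 3.68-fold, and CTR3, a copper transporter gene, 3.36-fold. YDR034C-A, an open reading frame within a Ty1 repeat, was at background on both ime4 arrays and at least 3.23-fold lower.

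**Figure D3:**
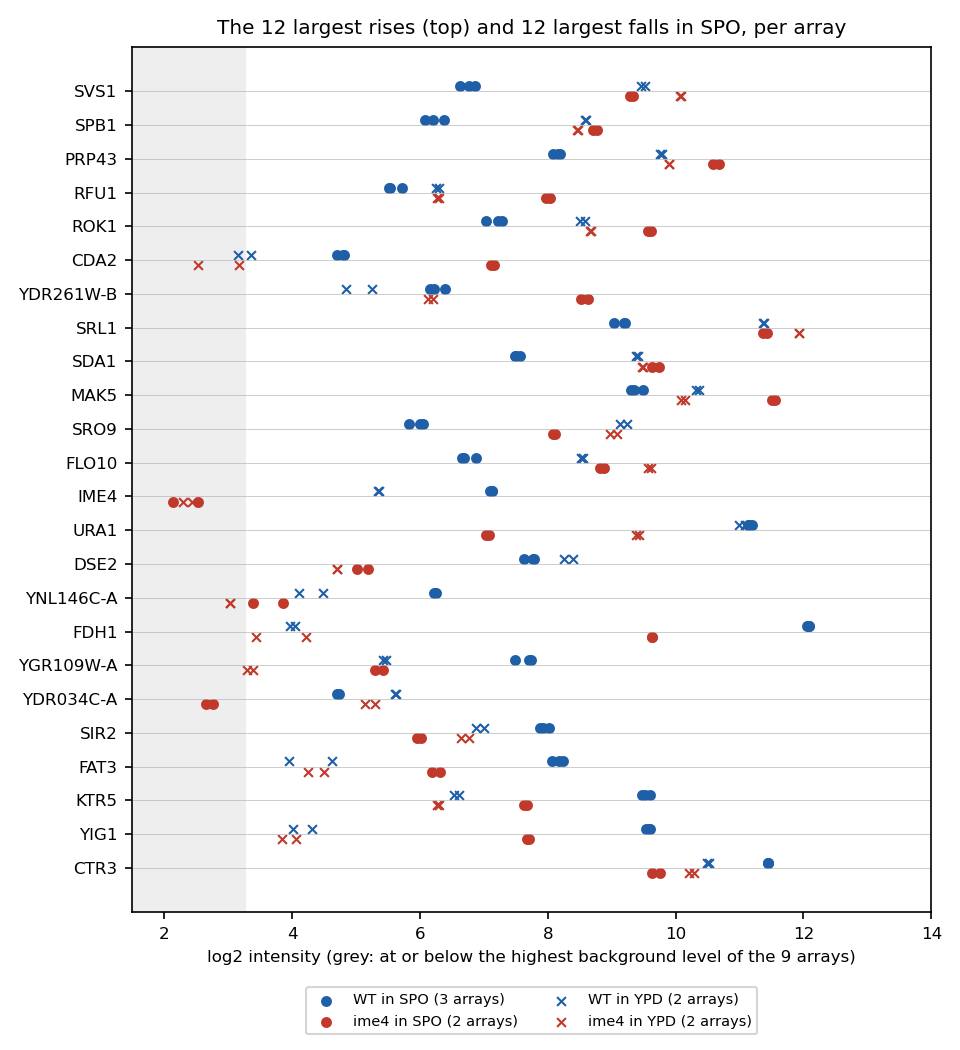
Log2 intensity on each of the 9 arrays for the 12 largest rises (from SVS1 down to FLO10) and the 12 largest falls (from IME4 down to CTR3) in SPO outside the mating-type lists. Blue is WT, red is ime4, circles are SPO and crosses are YPD, and the grey band is at or below the highest background level. In SPO no WT array overlaps an ime4 array, which was a condition for choosing these genes. In YPD, whose arrays were not used in the choice, the genotypes lie close together for most of the 24 genes.

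The genotype difference was then set beside that of the YPD arrays, which share no array with SPO. In YPD the difference was smaller, with a median absolute value of 0.15 log2 outside the mating-type lists, where 21.0% of sets were higher and 18.6% lower, with 36 sets (0.678%) at least 2-fold higher and 40 (0.753%) at least 2-fold lower. Of the 291 sets at least 2-fold higher in SPO, 57 were also higher in YPD, 54 were lower there and 180 did not pass. For the 85 lower sets these counts were 29, 21 and 35. Sets that changed 2-fold the same way in both media numbered 9 higher, which is 3.09% of the SPO list and 25% of the YPD list, and 9 lower, 10.6% and 22.5%. A test of the difference between the media (the interaction) was positive in 29.4% and negative in 34.6% of the 5313 sets. It was positive in 284 of the 291 and negative in 79 of the 85, which had been selected on the same SPO arrays.

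Those lower in both media were IME4, URA1, DSE2, DSE1, CTS1, PHO3, UIP4, YNL146C-A and YGR109W-A. In YPD, IME4 and YNL146C-A were at background on both ime4 arrays and DSE1 on 1 of them, so the size of their differences there is uncertain. YLR030W, named next, was at background on both WT arrays in YPD, and its difference there is uncertain too. The higher ones were the Ty1 sets YAR010C, YDR316W-B and YDR261W-B, with DFR1 (dihydrofolate reductase), CHA1 (serine deaminase), FRE4, FLO10, YLR030W and YAR068W. YAR068W differed by 1.63 in SPO and 1.61 in YPD, and PHO3 by -1.34 and -1.22. The interaction did not pass in either, at 0.02 (adjusted p = 0.884) and -0.12 (adjusted p = 0.214). The Ty1 sets varied more between replicates (YAR010C in SPO 11.07, 11.62 and 11.56 in WT and 12.52 and 12.36 in ime4). In YPD, YAR010C read 8.54 and 9.23 in WT and 10.07 and 10.20 in ime4. YDR316W-B read 7.92 and 8.97 in WT and 9.87 and 9.70 in ime4 there. The names of the Ty1 sets mark shared probes, so they may not read separate transcripts. Other differences common to both media were 1.06 and 1.00 for DFR1, -1.17 and -1.03 for UIP4, 1.46 and 1.34 for YDR316W-B, and 1.11 and 1.61 for CHA1, in SPO and YPD in turn.

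**Figure D4:**
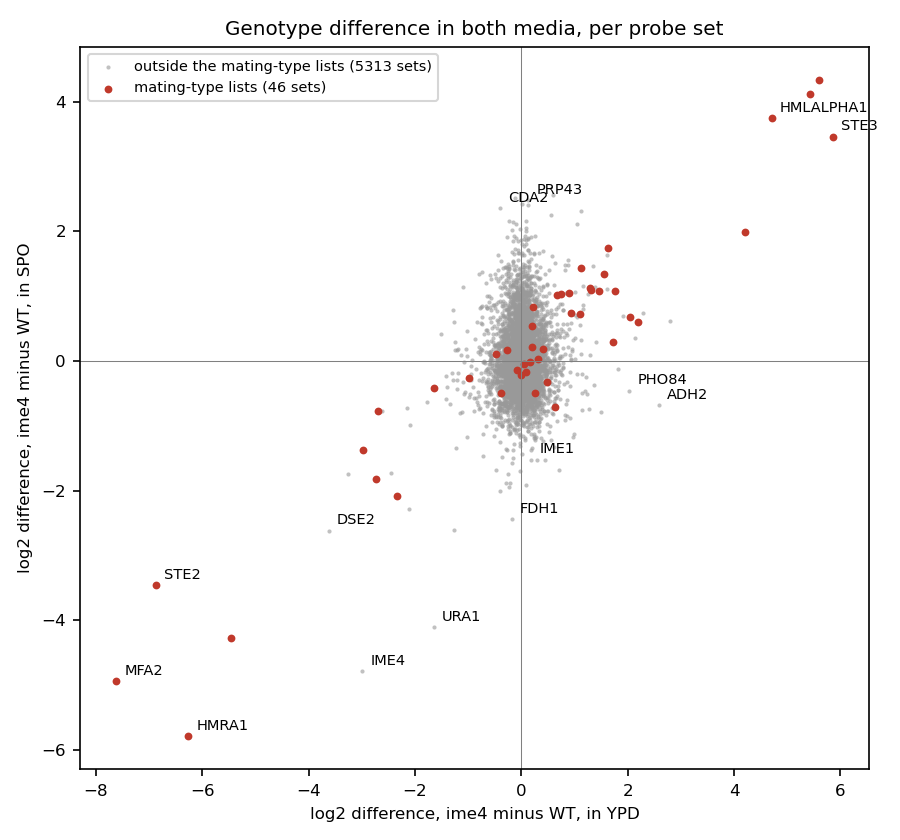
Log2 difference between ime4 and WT for each tested probe set, in YPD (horizontal) and SPO (vertical). Red points are the 46 sets of the mating-type lists and grey points the other 5313. The grey cloud is taller than it is wide, with median absolute differences of 0.32 in SPO and 0.15 in YPD, and the red points with large differences in both media have the same sign in both.

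Some lists held many genes that differed in opposite directions in the 2 media. Over all sets, 8.34% were lower in SPO and higher in YPD, and 5.92% the reverse. In the acetate list 12 of 22 genes (54.5%) were lower in SPO and higher in YPD, as were 12 of 29 iron genes (41.4%), 6 of 17 trehalose and glycogen genes (35.3%) and 5 of 14 alcohol and aldehyde dehydrogenase genes (35.7%). FBP1, fructose-1,6-bisphosphatase, differed by -0.79 in SPO and 1.49 in YPD, an interaction of -2.28 (adjusted p = 2.94e-07). ADH2 differed by -0.69 and 2.59. The phosphate transporter gene PHO84 differed by -0.46 and 2.03, whereas PHO89, a sodium-phosphate transporter gene, was higher in both (0.61 and 2.80). Ribosome assembly turned the other way, with 27 of 80 large subunit factors (33.8%) and 17 of 63 processome genes (27.0%) higher in SPO and lower in YPD.

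For IME1 the YPD difference was 0.19 (adjusted p = 0.0265) and the interaction -1.71 (adjusted p = 4.76e-07). SUM1 and UME6 had YPD differences of -0.15 and -0.24 and interactions of 1.68 and 1.30. RME1 was the reverse case, 1.72 in YPD against 0.30 in SPO.

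Chromosome III, noticed after the values were seen, stood apart as a whole. Outside the mating-type lists its 142 sets had a median difference of 0.18 in SPO and 0.16 in YPD, while the medians of the other 15 chromosomes lay between -0.11 and 0.03 in SPO and between -0.03 and 0.04 in YPD. The values by array and by window that follow include the mating-type lists, with 148 sets on chromosome III. Relative to the other chromosomes, the median deviation of chromosome III in SPO was -0.09, -0.10 and -0.14 in the WT arrays and 0.06 and 0.11 in the ime4 arrays. In YPD it was 0.01 and 0.04 in WT and 0.11 and 0.09 in ime4. All 4 ime4 arrays lay above all 5 WT arrays. In 10 windows of up to 15 neighbouring sets along the chromosome, the median was above 0 in 10 in YPD and in 9 in SPO. SPB1, SRO9 and CHA1 lie on this chromosome. No test was made of this pattern, and its part in their differences was not tested.

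**Figure D5:**
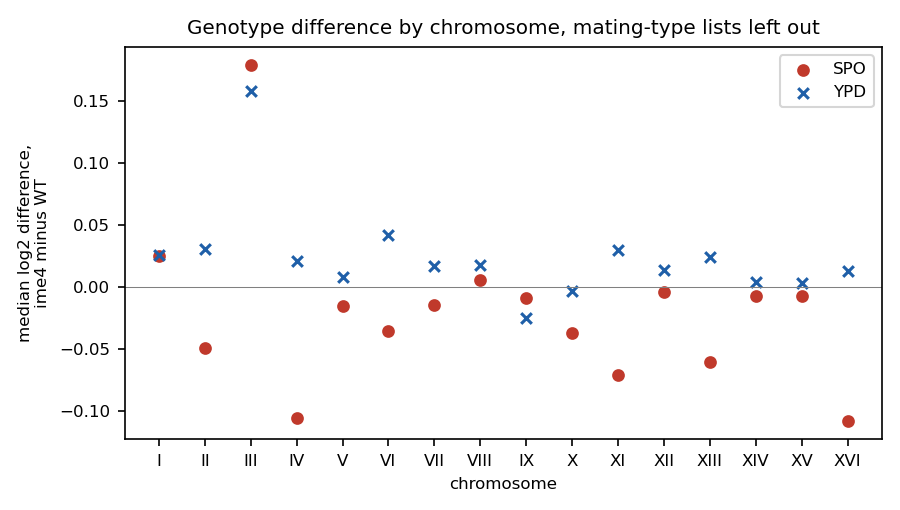
Median log2 difference between ime4 and WT by chromosome, without the mating-type lists, in SPO (red circles) and YPD (blue crosses). Chromosome III stands at 0.18 and 0.16, above all other chromosomes in both media.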

How the data were processed

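Total RNA (600 ng) was labelled as biotinylated cDNA and hybridised to Affymetrix arrays, per the labels. The deposited values are intensity on a linear scale, made with RMA per the submitters' processing notes. Its settings were not in the sources used here. The 99th percentile over all sets was 12.28 to 12.33 log2 in SPO and 12.63 to 12.65 in YPD, so the arrays of a medium were alike and those of the 2 media were not. Differences are relative to the other transcripts, and a shift of all of them may not show. Names came from the array's annotation joined to the gene table of assembly R64, which updated 12 symbols. Of 9676 sets, 1413 of another species set each array's background level (their 95th percentile, intensity 8.1 to 9.64) and 2904 without a name were not tested. The names of 126 tested sets mark probes shared with other sequences. A gene at background on every array of a group has its fold computed against that level and written as "at least".

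Group means of log2 values, with no offset, were fitted to all 9 arrays with limma 3.58.1 (lmFit, eBayes) in R 4.3.3. Contrasts were ime4 minus WT in SPO, in YPD, and their difference, two-sided, with Benjamini-Hochberg adjustment over 5359 sets and a threshold of 0.05. The labels call the arrays biological replicates, so p-values measure the spread between them, and their small number limits precision. The fit was tested on simulated data. Of several sets of a gene, the brightest was used. Members and lists were chosen with earlier results of these data known, and lists were not tested as sets. Named genes were the 12 largest rises and falls outside the mating-type lists, all members of the lists of meiotic entry, m6A, cassettes and IME4 neighbours, up to 4 of each other list, and the 5 largest interactions each way. The 12 rises and falls came from called sets whose SPO groups did not overlap. They also had to exceed background on every array of the higher group. The genes ASG7, MF(ALPHA)2, DMC1, NOB1, TIF6, LYS20, LYS14, PHO89, and those named only for a 2-fold change in both media, were chosen after their values were seen. Alternatives were quantile normalization, median centring, leaving out the dimmest 25% of sets, an offset of 16, an intensity trend, the SPO arrays alone, a replicate block, each array left out, the mating-type lists left out, and a test against 1.5-fold. A planned count of promoter motifs was not run, as promoter sequences were not used here.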

Additional observations from a re-analysis of the deposited data

Results flagged for a closer look

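Of 146 genes that the text describes, 121 had a genotype difference that differed between SPO and YPD past the threshold (limma, adjusted over 5359 sets). The interaction, the log2 difference in SPO minus that in YPD, was positive in 55 and negative in 66. Outside the mating-type lists it was positive in 29.4% and negative in 34.6% of 5313 sets. Many of the 146 genes were named for a large SPO difference or interaction, so their count follows in part from that choice. Of the mating-type genes, the interaction was 0.31 for HMRA2, -0.97 for HMLALPHA1, 2.67 for MFA2, 3.41 for STE2 and 1.22 for ASG7. The group also held -2.4 for STE3, -1.6 for MF(ALPHA)2, -0.23 for GPA1, 0.34 for STE12 and 1.92 for FIG1. Activators of meiotic entry had interactions of -1.71 for IME1, -1.18 for IME2, -1.31 for RIM4, -0.58 for RIM11 and -0.98 for MSN4. Then followed -0.47 for MSN2, -0.46 for RIM101, -0.44 for RIM8, -0.72 for RIM21 and -0.56 for RSF1. Repressors of meiotic genes gave 1.15 for SOK2, 1.68 for SUM1, 1.3 for UME6, -1.42 for RME1 and -1.02 for XBP1. To these were added -0.93 for SSN8, -0.54 for NRG1, -0.34 for NRG2, 0.36 for HST1 and -0.5 for RFM1. Further members had -0.17 for RPD3, -0.44 for ISW2, 0.39 for TUP1 and 0.24 for SIN3. In the m6A genes it was -1.8 for IME4, -1.04 for PHO92, -0.81 for SLZ1 and -0.3 for MUM2. Later meiotic and spore genes had 1.67 for MND1, -1.55 for MPS3, -1.15 for CSM4, -0.61 for DMC1 and 1.11 for MPC54. Then followed -0.65 for OSW1, 2.77 for CDA2 and 0.53 for SKT5. Ribosome assembly genes had positive values of 2.63 for SPB1, 2.35 for PRP43, 2.27 for ROK1, 2.07 for SDA1 and 2.38 for MAK5. To these were added 2.21 for ECM16, 2.06 for UTP14, 1.47 for GAR1, 1.61 for RPA190 and 1.09 for RPA43. Further members had 2.24 for RPA12 and 1.31 for RPC53.

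Genes of ribosomal proteins and translation gave 1.41 for RPL8B, 1.69 for RPL16B, 1.64 for RPS9B, -0.73 for MRPL7 and 1.72 for TIF3. Next came -1.2 for HEF3 and 1.28 for THS1. For acetate use and respiration the values were -1.1 for ATO3, -1.39 for ACS1, -1.6 for CAT8, -2.28 for FBP1 and -1.3 for CIT3. Beside these stood -1.1 for KGD1, -1.09 for NDI1, -1.13 for YAT1, -3.28 for ADH2 and 1.35 for ALD5. Storage, stress and nutrient genes gave -1.55 for GLG2, 0.56 for PGM1, -1.82 for SIP18, -1.34 for GRE1 and -1.07 for PRB1. Further members had -1.29 for GDH3, -1.69 for ARN2, -1.64 for SIT1, -2.49 for PHO84 and -2.19 for PHO89. In biosynthesis and amino acid breakdown they were -2.46 for URA1, 1.12 for URA7, 1.21 for GUA1, 2.11 for THR1 and 1.28 for HOM3. Next came -2.12 for LYS9, -1.79 for LYS20, -1.14 for LYS14, 1.67 for CYS3, -2.41 for ARO9 and -2.15 for ARO10. Cell cycle and daughter-cell genes had 2.18 for POL2, 1.46 for POL30, 0.92 for SWI5, 1.18 for HSL1 and 0.72 for CLN2. Beside these stood 1.25 for RSR1, 1.0 for DSE2, 1.52 for DSE1 and 0.71 for CTS1. The largest other rises gave 1.98 for SVS1, 2.41 for RFU1, 1.69 for SRL1, 2.3 for SRO9, 1.06 for FLO10 and 1.2 for YDR261W-B. The largest other falls gave -2.27 for FDH1, -1.36 for YNL146C-A, -1.61 for YDR034C-A, -1.71 for SIR2 and -1.99 for FAT3. The group also held -1.59 for KTR5, -1.67 for YIG1 and -1.49 for CTR3. Among the remaining genes, the value was -0.5 for CHA1 and -0.54 for RIM20. The sizes for IME4, MFA2, CDA2, OSW1, PHO92, YNL146C-A and YDR034C-A are uncertain, because both arrays of at least 1 group were at background. For STE2, FIG1, DSE1 and MND1, 1 array of a YPD group was at background, which limits their sizes too.

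Among the 2904 probe sets without a gene name, 7 were at least 2-fold higher in ime4 in SPO past the threshold and above background on both ime4 arrays, and 7 were at least 2-fold lower and above background on all WT arrays. They enter no count above.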

How the results depend on the processing

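Of 138 recomputed counts of called sets, 131 were within 1.5 times the reported count. The 7 others fell where fewer sets were tested or a larger difference was asked for. Without the dimmest 25% of sets, 59 sets instead of 92 were at least 2-fold lower in SPO, and 264 instead of 306 at least 2-fold higher. A larger share of the 2-fold falls than of the 2-fold rises was thus lost. Tested against 1.5-fold, 513 sets were higher and 226 lower in SPO, 66 and 58 in YPD, and the interaction was positive in 465 and negative in 275. With single arrays left out, 1658 to 1839 sets were higher and 1849 to 2124 lower in SPO, 292 to 310 and 89 to 100 at least 2-fold, 829 to 1124 and 727 to 1001 in YPD, and 1462 to 1562 positive and 1651 to 1783 negative in the interaction. Where this leaves 1 array in a group, it is assumed to vary like the others. Quantile normalization gave 1741 higher and 2214 lower in SPO, and it moved the median of all sets by -0.009 log2 (centring 0.039). Of the list medians under these 2 scalings, 45 moved and 53 did not, and the early list turned sign. The replicate numbers did not pair the arrays (correlations of deviations -0.021 to 0.074), and a replicate block gave 1740 higher and 2000 lower in SPO.

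Sign changes were limited to named genes that did not pass. With single arrays left out, NDT80 ranged from -0.128 to 0.426 log2, HOS2 from -0.014 to 0.062, RIM13 from -0.245 to 0.064, RIM20 from -0.034 to 0.055 and SIN3 from -0.06 to 0.005. RIM20 read -0.145 with quantile normalization and -0.02 with the replicate block. SIN3 read 0.033 with quantile normalization and 0.011 with centring. The cause was not tested. Changes of call other than in the test against 1.5-fold are given beside each gene. In that test the calls of ASG7, MF(ALPHA)2, FIG1, RME1, SLZ1, DMC1, MPC54, SKT5, NOB1, TIF6, ADH2, PHO84, PHO89, CLN2, COX13 and YAR010C were lost. Among regulators of meiotic entry it also took those of RIM11, RIM101, RIM8, RIM21, MSN2 and RSF1. Of the repressors, SSN8, RFM1, HST1, RPD3, CYC8, ISW2, NRG1, UME1 and SSN3 did not pass it either.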
